A study of Mus musculus with 5 samples.

Results

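The genes described here encode cytochromes P450, and they were chosen by their names: a single annotated symbol made of Cyp, a family number, a subfamily letter and a gene number. Of 22180 named genes on the arrays, 90 met this rule, in 15 families and 38 subfamilies, and where several probe sets named a gene the brightest on average stands for it. The 5 arrays measured RNA from fresh heart of 12-week-old males on a C57BL/6 background. Wild type hearts gave 3 of them, replicates 3, 4 and 5. The Akita group had 2 arrays, replicates 1 and 3, from mice carrying a mutation in Ins2, written Ins2+/- in the series' text and labelled as a model of type 1 diabetes. No other allele or agent is given for either group. Whether each RNA is from its own animal is not stated, and p-values here rest on a spread between samples that may be in part technical. Values are log2 signals of probe sets, in which a difference of 1 is a doubling. Signals of different probe sets do not rank genes by abundance.

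P450 enzymes hold a heme group and use oxygen and electrons from a reductase to oxidise small molecules. Families 1 to 4 oxidise drugs, pollutants, fatty acids and eicosanoids, the signalling lipids made from arachidonic acid, while most higher families make or clear steroids, bile acids, vitamin D and retinoic acid. Most P450s are best known from liver. In the heart the family is known for epoxygenases of the 2C and 2J subfamilies, which turn arachidonic acid into vasoactive epoxides, and for Cyp1a1 and Cyp1b1, which the aryl hydrocarbon receptor (AhR) induces.

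Most P450 genes gave little signal in the heart. The filter on dim genes, a mean log2 signal of 4.064 or the 30th percentile of all named genes, left 32 of the 90 for testing, with mean signals from 4.10 (Cyp2d26) to 7.69 (Cyp2u1). The 58 genes under it lay between 2.18 and 4.04. The nearest genes on the lower side were Cyp2j11, Cyp4f18 and Cyp4f37 at 4.04, 4.04 and 4.03, and on the upper side Cyp2d26, Cyp7b1 and Cyp2c55 at 4.10, 4.12 and 4.23. Cardiomyocyte markers marked the tissue as heart: all 6 listed genes passed the filter, and the log2 of their summed signal was 15.21 to 15.26 in wild type and 15.17 and 15.15 in Akita replicates 1 and 3.

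**Figure D1:**
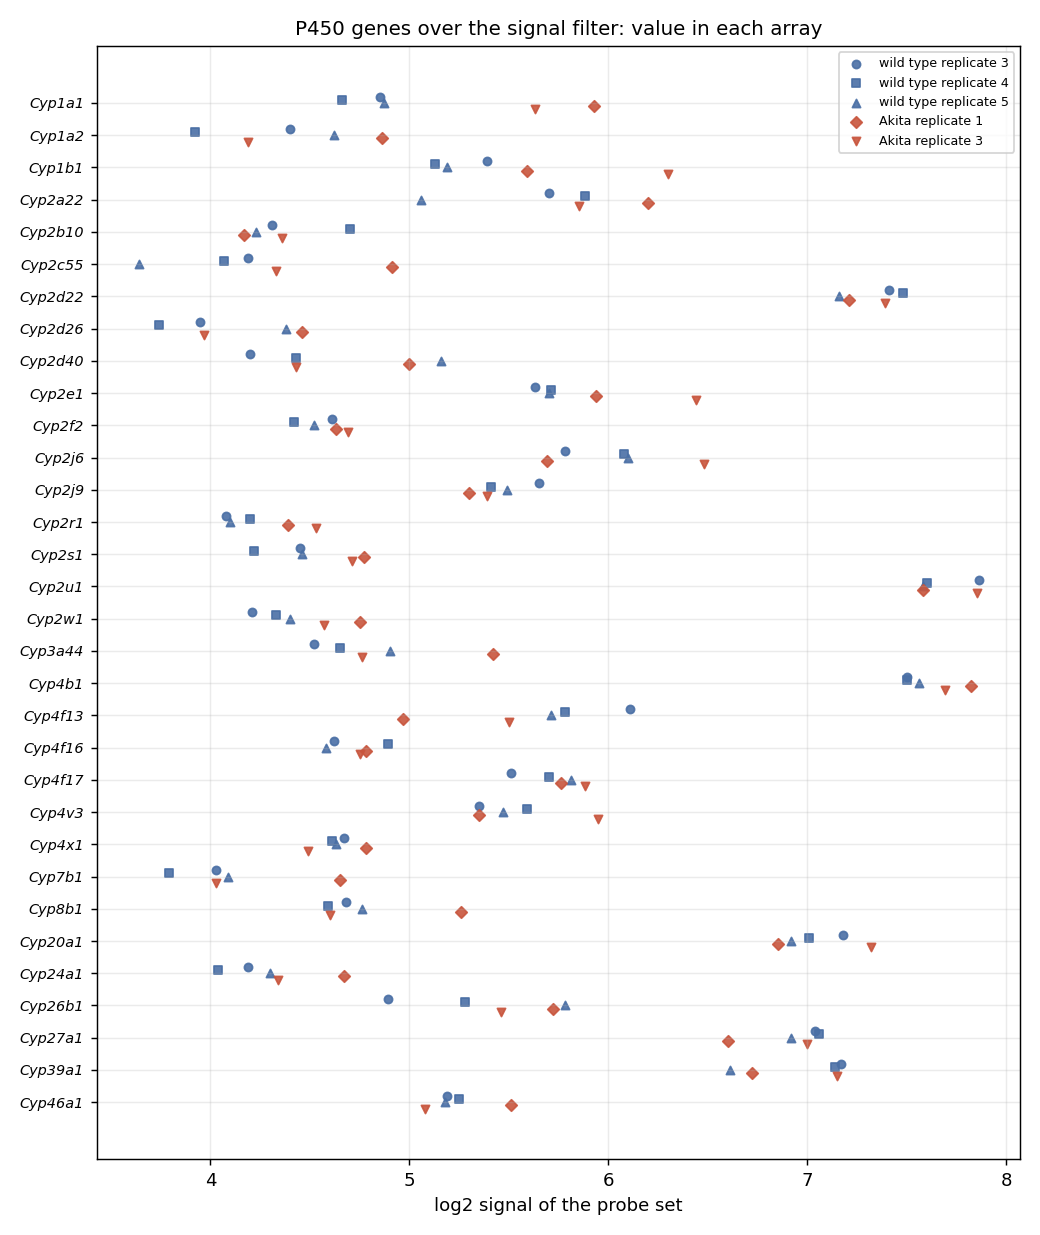
Log2 signal of the 32 P450 genes over the filter (rows) in each of the 5 arrays, wild type in blue and Akita in red, with a marker shape per array and points offset vertically for legibility. Both Akita points of Cyp1a1, at 5.93 and 5.63, lie to the right of its wild type points at 4.66 to 4.87.

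Cyp1a1, an oxidase of polycyclic aromatic compounds, was the P450 gene that passed the test. Its signal was 4.85, 4.66 and 4.87 in wild type replicates 3, 4 and 5 and 5.93 and 5.63 in Akita replicates 1 and 3. Both Akita arrays thus lay above every wild type array. It rose from 4.79 ± 0.12 (SD, n = 3) to 5.78 ± 0.21 (SD, n = 2), a log2 difference of 0.99 (SE 0.14, 95% interval 0.67 to 1.31), with a limma adjusted p of 0.0424 over 15528 genes. On the linear scale this was 1.98-fold. The signal was dim, as the median over all probe sets was 4.53 to 4.62 in the wild type arrays and 4.71 and 4.6 in Akita. Cyp1a1 made 1 of 32 tested P450 genes past the threshold (3.12%), against 0.328% of all genes tested, and 0.213% in the higher direction. Cyp1a1 was already known from earlier results of these data when the family was chosen for description, so its call is not independent support for the family. The call was lost when any of the 5 arrays was left out (adjusted p 0.0852 to 0.222), while the difference stayed between 0.84 and 1.14. It was also lost when the arrays were quantile-normalized again (adjusted p = 0.0628), weighted by array (0.0656), centred on the tested genes (0.0873) or fitted without moderation (0.329). Markers of cells in which Cyp1a1 is known to be inducible were read beside it. The log2 of their summed signal was 11.97 to 12.13 in wild type and 12.10 and 12.28 in Akita replicates 1 and 3 for 5 endothelial genes, and 6.22 to 6.48 and 6.69 and 6.36 for 5 lung epithelium genes. Their part in the Cyp1a1 rise was not tested.

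The other Cyp1 genes lay higher by smaller amounts without passing. Cyp1b1, which oxidises aromatic compounds, estrogens and retinoids, stood at 5.39, 5.13 and 5.19 in wild type and at 5.59 and 6.30 in Akita replicates 1 and 3. The groups did not overlap, but most of the distance came from Akita replicate 3. The log2 difference was 0.71 (SE 0.21, 95% interval 0.22 to 1.19, limma adjusted p = 0.234). Against the wild type mean it was 0.35 in Akita replicate 1 and 1.06 in replicate 3. Fibroblast markers were high in the same array. The distance of Tcf21, whose groups overlapped, was -0.55 in Akita replicate 1 and 0.46 in replicate 3. The log2 of the summed fibroblast signal was 10.93 to 10.99 in wild type and 11.14 and 11.58 in Akita replicates 1 and 3. Of the 5 genes, 3 were higher without overlap, against 9.89% of all genes tested. Atrial myocyte markers stood at 12.09 to 12.19 and at 12.34 and 13.97, with 2 of 5 higher without overlap. Most of that sum was Nppa. The median distance of the 5 atrial markers from the wild type mean was -0.18 in Akita replicate 1, where the distance of Myl7 was -1.45, and 2.36 in replicate 3. Epicardial markers stood at 8.23 to 8.28 and at 8.32 and 8.92, with 3 of 6 higher without overlap. Smooth muscle and pericyte markers stood at 12.06 to 12.10 and at 12.04 and 12.23, with 1 of 5 higher without overlap. The part of these cells in the Cyp1b1 value was not tested, and in whole tissue more cells of a type cannot be told apart from more RNA per cell.

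Cyp1a2, a close relative of Cyp1a1 and its neighbour in the genome, is mainly a liver enzyme. It lay at 4.40, 3.92 and 4.62 in wild type and at 4.86 and 4.19 in the Akita arrays. The groups overlapped, and the log2 difference was 0.21 (SE 0.25, 95% interval -0.38 to 0.81, limma adjusted p = 0.762). That interval overlaps the Cyp1a1 interval, and the difference between both genes was not tested. Among the other genes within 4 places of Cyp1a1 in the RefSeq order of protein-coding genes (GRCm38.p6) that were measured, Cplx3, Lman1l, Csk, Edc3, Arid3b and Ubl7, limma adjusted p was 0.310 or more. Of these 6 genes, Ubl7 had the largest difference, -0.39. Clk3, which lies between them, was not analysed here.

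The sequences before the starts of the 3 Cyp1 genes are shown because AhR with its partner Arnt acts through the core GCGTG. RefSeq (GRCm38.p6) gives these 250 bases before the annotated start, 5′ to 3′ on the gene's strand. Capitals mark GCGTG on either strand (CACGC when read on the other strand) and the TATA element TATAAA.
Cyp1a1: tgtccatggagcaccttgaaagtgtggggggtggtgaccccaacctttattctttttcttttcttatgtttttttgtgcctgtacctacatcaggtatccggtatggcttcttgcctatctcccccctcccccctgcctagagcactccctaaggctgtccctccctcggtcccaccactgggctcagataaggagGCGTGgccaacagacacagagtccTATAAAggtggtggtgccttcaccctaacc
Cyp1a2: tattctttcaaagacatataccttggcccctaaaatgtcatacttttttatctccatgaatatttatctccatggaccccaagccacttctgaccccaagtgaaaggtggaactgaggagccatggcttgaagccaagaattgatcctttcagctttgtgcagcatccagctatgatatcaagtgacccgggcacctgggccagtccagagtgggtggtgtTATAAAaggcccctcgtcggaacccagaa
Cyp1b1: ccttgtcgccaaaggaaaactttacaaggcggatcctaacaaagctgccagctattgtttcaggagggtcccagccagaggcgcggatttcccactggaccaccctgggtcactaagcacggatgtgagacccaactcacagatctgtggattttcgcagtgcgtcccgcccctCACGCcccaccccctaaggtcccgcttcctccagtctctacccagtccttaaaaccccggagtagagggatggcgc
The Cyp1a1 window is chr9:57697363-57697612 on the plus strand, that of Cyp1a2 chr9:57683656-57683905 on the minus strand and that of Cyp1b1 chr17:79715062-79715311 on the minus strand. Cyp1a1 held 1 GCGTG, 54 to 50 bases before the start, and a TATAAA 30 to 25 bases before it. Cyp1a2 held a TATAAA 29 to 24 bases before its start and 0 copies of GCGTG. Cyp1b1 held 1 GCGTG on the other strand, 76 to 72 bases before the start, and 0 copies of TATAAA.

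Neither motif was rare. GCGTG on either strand occurred in 28.2% of 32851 promoter windows of this length and in 20.5% of the 78 windows found for 70 of the 90 P450 genes. Besides Cyp1a1 and Cyp1b1 it was held by 7 other tested P450 genes with a window, among them Cyp20a1, Cyp46a1 and Cyp2w1. The longer TNGCGTG, on either strand, occurred in 4.10% of all windows and in that of Cyp2c68 among P450 genes. TATAAA on either strand occurred in 12.4% of all windows and 30.8% of P450 windows. A direct repeat of AGGTCA with 1 base of any kind between, a form bound by the fatty acid receptor PPAR, occurred in 0.0335% of all windows, on either strand, and in 0 P450 windows. A match is a string of letters, and these windows leave out more distant elements.

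The AhR axis around Cyp1a1 showed no call. Ahr, the receptor, lay at 6.88, 7.06 and 7.03 in wild type and 6.78 and 7.05 in Akita (log2 difference -0.075, limma adjusted p = 0.849), and Arnt at 8.68 ± 0.05 (SD, n = 3) and 8.64 in both Akita arrays. Both genes overlapped between groups. Among AhR-responsive genes outside the P450 family, Nqo1, a quinone reductase, differed by a log2 of 0.03 and Aldh3a1, an aldehyde dehydrogenase, by 0.08. Tiparp, an ADP-ribosyltransferase, lay at 6.90, 6.57 and 6.27 in wild type and 6.40 and 6.75 in Akita. Slc7a5, an amino acid transporter, differed by -0.32 (limma adjusted p = 0.474). Its groups did not overlap, at 5.72 to 6.31 in wild type and 5.65 and 5.71 in Akita. Lower without overlap were 19.9% of all genes tested. In all, 0 of 4 tested genes of the receptor complex and 0 of 5 responsive genes passed by limma, against 0.328% of all genes tested. At an unadjusted p under 0.05 by limma there were 0 of them, against 4.13% higher and 9.49% lower of all genes tested. Lists this short can give 0 at such shares. Ahrr, the AhR repressor, lay under the filter at 3.92 ± 0.13 in wild type and 3.84 ± 0.06 in Akita.

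**Figure D2:**
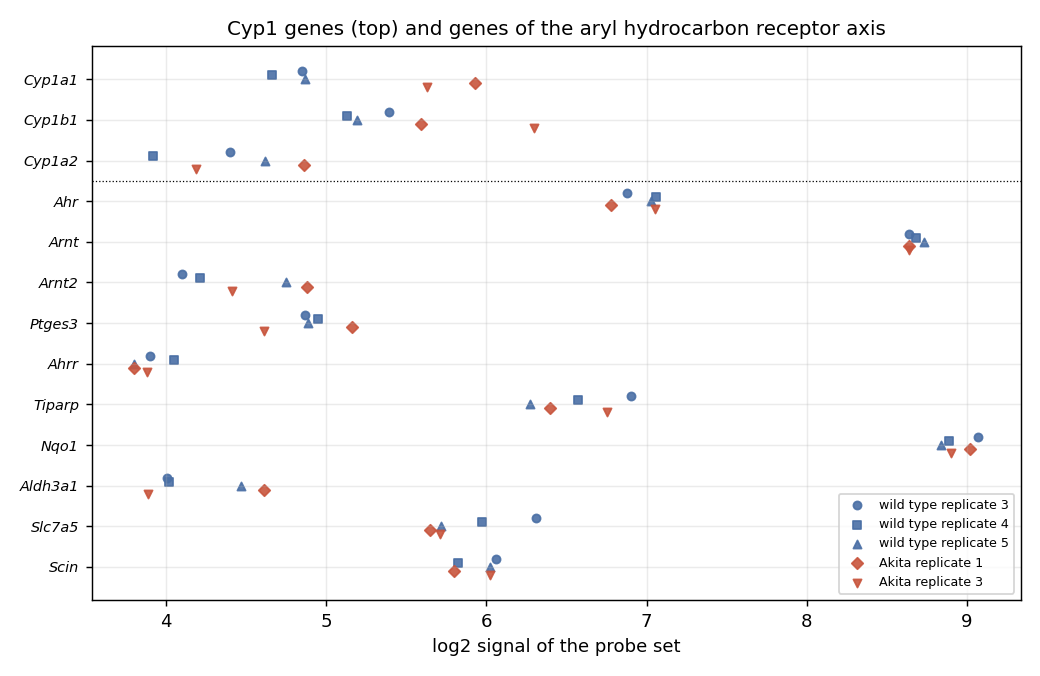
Log2 signal in each array of the 3 Cyp1 genes (above the dotted line) and of 10 measured genes of the AhR axis, wild type in blue and Akita in red, with a marker shape per array. Cyp1a1 and Cyp1b1 have both Akita points above all wild type points, whereas those of Ahr, Arnt, Tiparp and Nqo1 overlap. Slc7a5 has both Akita points below all wild type points.

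P450 enzymes that act on fatty acids and eicosanoids gave no gene past the test. Cyp2u1, which hydroxylates long-chain fatty acids, lay at 7.86, 7.60 and 7.58 in wild type and 7.58 and 7.85 in Akita, so that the groups coincided (log2 difference 0.04, SE 0.14, 95% interval -0.30 to 0.37, limma adjusted p = 0.942). Cyp4b1, a hydroxylase of fatty acids and of some foreign compounds, lay at 7.50, 7.50 and 7.56 in wild type and at 7.82 and 7.69 in Akita. Its Akita arrays were both above its closely spaced wild type arrays, but the log2 difference of 0.23 (SE 0.11) did not pass (limma adjusted p = 0.400). Cyp4v3, a fatty acid hydroxylase, differed by 0.18 (limma adjusted p = 0.714), and its Akita arrays lay apart, at 5.35 and 5.95. Cyp4x1, at 4.49 to 4.78 in all 5 arrays, differed by less than 0.01.

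Genes of the Cyp4f subfamily, whose enzymes hydroxylate leukotrienes and other eicosanoids, did not share a direction. Cyp4f13 lay at 6.11, 5.78 and 5.71 in wild type and at 4.97 and 5.50 in Akita. Both Akita arrays were below all wild type arrays, with a log2 difference of -0.63 (SE 0.19, 95% interval -1.08 to -0.18) that did not pass (limma adjusted p = 0.242). It was the lowest difference of any P450 gene. Cyp4f17 and Cyp4f16 differed by 0.15 and 0.07, with limma adjusted p of 0.663 and 0.866. The other 6 of the 9 Cyp4f genes lay under the filter, as did the 3 Cyp4a genes whose symbols fit the naming rule. Cyp4a enzymes hydroxylate fatty acids in liver and kidney. Cyp4a12b, whose symbol falls outside the rule, was brighter, at 5.33, 5.98 and 5.78 in wild type and 6.3 and 5.85 in Akita. Its groups overlapped (log2 difference 0.38).

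The epoxygenase subfamilies were mostly dim. Of 7 Cyp2j genes, Cyp2j6 and Cyp2j9 passed the filter. Cyp2j6 lay at 5.78, 6.08 and 6.10 in wild type and at 5.69 and 6.48 in Akita, on both sides of the wild type arrays (log2 difference 0.10, SE 0.23, limma adjusted p = 0.891). Cyp2j9 lay at 5.65, 5.41 and 5.49 in wild type and at 5.30 and 5.39 in Akita. Those groups did not overlap, by a margin of 0.02, and the log2 difference of -0.17 did not pass (SE 0.12, limma adjusted p = 0.576).

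Of 14 Cyp2c genes, Cyp2c55 alone passed the filter, and it did so with a wild type mean under the limit. It lay at 4.19, 4.07 and 3.64 in wild type and at 4.91 and 4.33 in Akita (log2 difference 0.65, SE 0.22, 95% interval 0.14 to 1.17, limma adjusted p = 0.286). The groups did not overlap, with Akita replicate 1 the higher array. Its dimmer second probe set gave 2.96, 3.36 and 2.89 in wild type and 3.11 and 2.38 in Akita, a difference of -0.32, so the probe sets disagreed in direction. Cyp2c39 and Cyp2c37, under the filter and chosen for mention after their values were seen, also had both Akita arrays above the wild type arrays. Cyp2c39 stood at 3.28, 2.83 and 3.42 in wild type and 4.28 and 4.0 in Akita, a log2 difference of 0.96. Cyp2c37 stood at 2.51, 2.60 and 2.29 in wild type and 3.01 and 3.28 in Akita, a log2 difference of 0.68. In the limma fit without the filter their adjusted p was 0.122 and 0.147. The other 11 Cyp2c genes overlapped between groups.

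**Figure D3:**
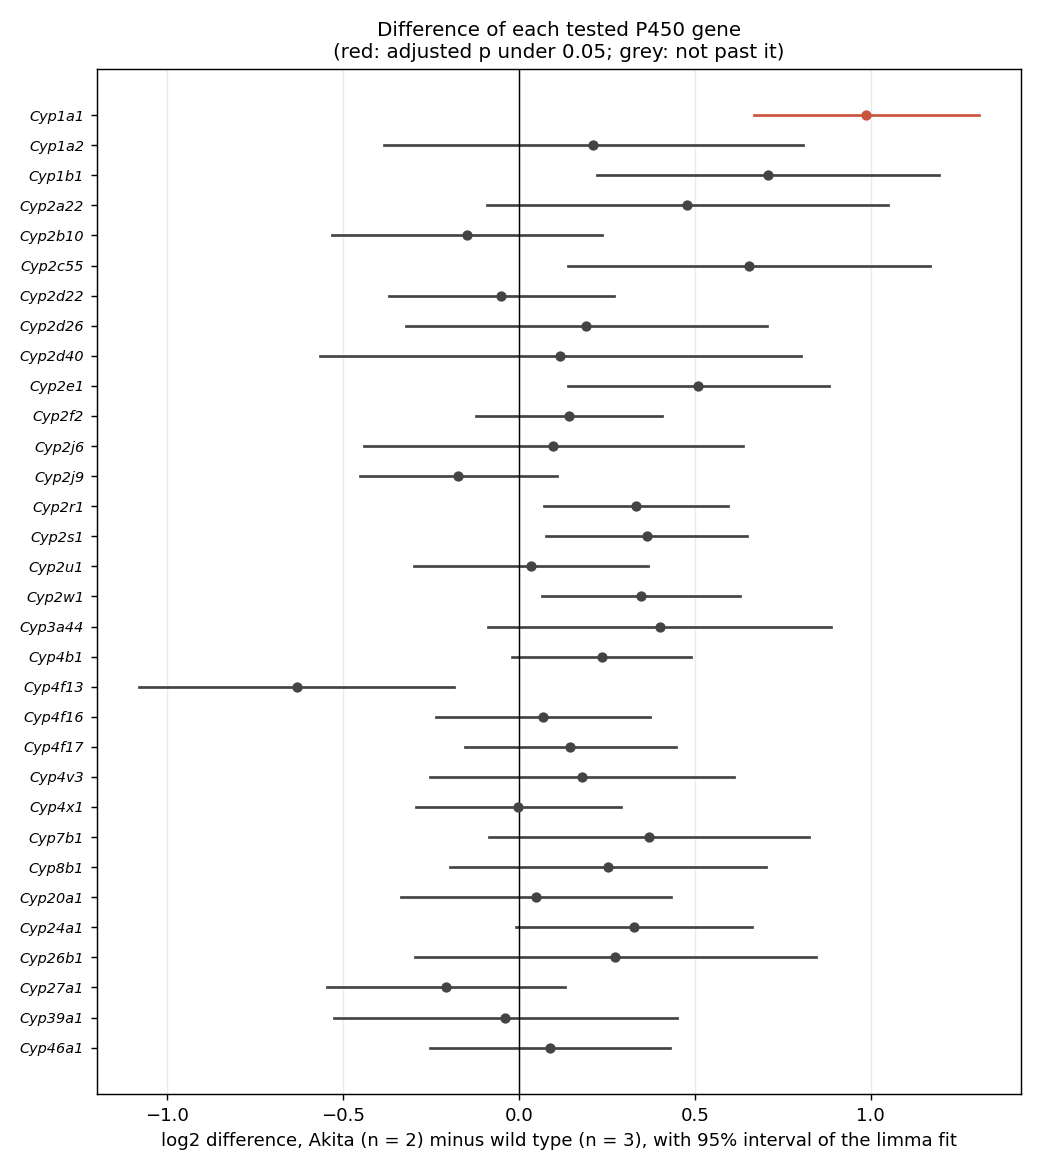
Log2 difference, Akita (2 arrays) minus wild type (3 arrays), of the 32 tested P450 genes, with 95% intervals of the limma fit. Cyp1a1 (red) passed the adjusted threshold, the intervals of 7 genes lie wholly above 0 and that of Cyp4f13 lies wholly below it.

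Among P450 genes of drug and solvent metabolism, Cyp2e1 had an Akita difference carried mainly by 1 array. Cyp2e1, which oxidises ethanol and acetone, lay at 5.63, 5.71 and 5.70 in wild type and at 5.94 and 6.44 in Akita replicates 1 and 3. Both Akita arrays were above the wild type arrays, which spanned 0.08, but the log2 difference of 0.51 did not pass (SE 0.16, 95% interval 0.14 to 0.88, limma adjusted p = 0.249). Markers of white adipocytes, which express Cyp2e1, were read beside it. The log2 of their summed signal was 6.95, 6.95 and 7.03 in wild type and 7.29 and 7.63 in Akita replicates 1 and 3. The 3 of 5 white adipocyte markers over the filter were all higher without overlap. That held for 9.89% of all genes tested and 14.1% of those with a mean signal under 6. The defining markers Adipoq and Lep lay under the filter and overlapped between groups. Of 3 tested brown adipocyte markers, Ucp1 was higher without overlap, Cox7a1 was lower without overlap and Cidea overlapped. Lower without overlap were 19.9% of all genes tested. Ucp1 lay at 4.17 to 4.36 in wild type and at 5.35 and 6.82 in Akita replicates 1 and 3. The part of these cells in the Cyp2e1 value was not tested.

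Cyp2d22, which belongs to the main drug-oxidising subfamily 2D, lay at 7.41, 7.48 and 7.16 in wild type and 7.21 and 7.39 in Akita. The groups overlapped (log2 difference -0.05, SE 0.14, limma adjusted p = 0.910). Cyp2d26 and Cyp2d40 overlapped too, with differences of 0.19 and 0.12, and the other 6 of the 9 Cyp2d genes were under the filter. Cyp2b10, the best known target of the receptor Car (Nr1i3), differed by -0.15 (limma adjusted p = 0.737), and Cyp2a22 by 0.48 (SE 0.24, limma adjusted p = 0.445) with overlapping arrays. Cyp3a44, the tested gene among 7 of the Cyp3a subfamily, lay at 4.52, 4.65 and 4.90 in wild type and at 5.42 and 4.76 in Akita (log2 difference 0.40, limma adjusted p = 0.456).

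Cyp2s1 and Cyp2w1, P450 genes known mainly outside the liver, had close values. Cyp2s1 lay at 4.45, 4.22 and 4.46 in wild type and at 4.77 and 4.71 in Akita (log2 difference 0.36, SE 0.12, limma adjusted p = 0.285). Cyp2w1 lay at 4.21, 4.33 and 4.40 in wild type and at 4.75 and 4.57 in Akita (log2 difference 0.35, SE 0.12, limma adjusted p = 0.294). In both genes the groups did not overlap and the difference did not pass. Cyp2f2, an enzyme of the airway, had non-overlapping groups set apart by 0.02 and a difference of 0.14 (limma adjusted p = 0.628). Of the 5 lung markers, Scgb1a1, Sftpa1 and Sftpd lay under the filter. Sftpc and Sftpb passed it, at 5.35 and 4.78 in Akita replicate 1 and at 4.67 and 4.36 in replicate 3, and overlapped between groups.

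P450 genes of vitamin D metabolism were dim. Cyp2r1, which makes the circulating form of vitamin D, lay at 4.08, 4.20 and 4.10 in wild type and at 4.39 and 4.53 in Akita (log2 difference 0.33, SE 0.11, 95% interval 0.07 to 0.60, limma adjusted p = 0.285). Cyp24a1, which inactivates vitamin D, lay at 4.19, 4.04 and 4.30 in wild type and at 4.67 and 4.34 in Akita (log2 difference 0.33, SE 0.14, limma adjusted p = 0.375). The groups did not overlap in either gene, and neither passed. Cyp27b1, which makes the active hormone, was under the filter.

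P450 genes that act on cholesterol and bile acids gave no call either. Cyp27a1, which oxidises the sterol side chain in mitochondria, lay at 7.04, 7.06 and 6.92 in wild type and at 6.60 and 7.0 in Akita (log2 difference -0.21, SE 0.14, 95% interval -0.54 to 0.13, limma adjusted p = 0.576). Cyp39a1, an oxysterol hydroxylase, lay at 7.17, 7.14 and 6.61 in wild type and at 6.72 and 7.15 in Akita (log2 difference -0.04, SE 0.21, limma adjusted p = 0.955). Both overlapped between groups, as did Cyp46a1, the cholesterol hydroxylase of brain, at 0.09 and adjusted p 0.840.

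The oxysterol hydroxylase Cyp7b1 and the bile acid enzyme Cyp8b1 were higher in Akita replicate 1 alone. Cyp7b1 lay at 4.65 there and at 4.03 in replicate 3, against 3.79 to 4.09 in wild type. Cyp8b1 lay at 5.26 and 4.60, against 4.59 to 4.76 in wild type. Their log2 differences of 0.37 and 0.25 had limma adjusted p of 0.460 and 0.609. Of the hepatocyte markers, Alb, Serpina1a and Fgb were under the filter. Higher without overlap was 1 of the 4 tested genes, against 9.89% of all genes tested. The log2 of the summed hepatocyte signal was 7.82 to 7.93 in wild type and 8.09 and 8.49 in Akita replicates 1 and 3. In replicate 3 that sum was led by Ahsg, at 7.68 there, 6.34 in replicate 1 and 6.12 to 6.57 in wild type. The median distance of the 7 markers from the wild type mean was 0.42 in replicate 1 and 0.06 in replicate 3. Cyp7b1 and Cyp8b1 had this order of arrays, but so did dim genes in general. The medians were 0.09 and -0.0033 for all tested genes with a signal under 6, and 0.10 and 0.01 for all genes under the filter. The part of hepatocytes in the Cyp7b1 and Cyp8b1 values was not tested. Cyp7a1, the rate-limiting enzyme of bile acid synthesis, was under the filter, and so were the steroid hormone genes Cyp11a1, Cyp11b1, Cyp11b2, Cyp17a1 and Cyp21a1.

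Cyp26b1, which clears retinoic acid, varied within wild type from 4.89 to 5.78, and both Akita arrays, at 5.72 and 5.46, fell inside that range (log2 difference 0.27, SE 0.24, limma adjusted p = 0.668). Cyp26a1 and Cyp26c1 were under the filter. Cyp20a1, a P450 without a settled substrate, lay at 7.18, 7.01 and 6.92 in wild type and on both sides of them in Akita, at 6.85 and 7.32 (log2 difference 0.05, SE 0.16, limma adjusted p = 0.929).

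As a group, the tested P450 genes lay higher in Akita more often than other genes. The groups did not overlap for 10 of 32 genes in the higher direction (31.2%), against 9.89% of all genes tested, and for 2 in the lower direction (6.25%), against 19.9%. By sign alone 25 of 32 were higher, against 43.3% of all genes tested, and the median log2 difference was 0.19 against -0.03. At an unadjusted p under 0.05 by limma there were 7 higher and 1 lower, against 4.13% and 9.49% of all genes tested. With the other scalings tried, 22 to 28 of the 32 were higher by sign, against 27.2% to 62.3% of all genes tested. Higher without overlap were 8 of them when quantile-normalized again (14.7% of all genes tested), 9 centred on all probe sets (5.03%) and 12 centred on the tested genes (18.2%). Without the 3 Cyp1 genes, 8 of 29 were higher without overlap and the median was 0.15. The 32 genes are not independent, and 3 of them (Cyp2c55, Cyp7b1 and Cyp2d26) passed the filter with a wild type mean under it, while 0 did so with an Akita mean under it.

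Most tested P450 genes are dim. The median difference of all tested genes with a signal under 6 was 0.05 in the deposited values, -0.04 with arrays centred on all probe sets, 0.00 when quantile-normalized again and 0.14 when centred on the tested genes. Of the 25 tested P450 genes with a mean signal under 6, 9 were higher without overlap (36.0%), against 14.1% of all tested genes of that signal, and 2 were lower (8.0%), against 9.47%. By sign 21 of these 25 were higher, against 59.4%, and the medians were 0.25 and 0.05. By limma, Cyp1a1 passed among the 25, against 0.336% of genes of that signal in either direction and 0.307% in the higher. The 7 higher and 1 lower at an unadjusted p under 0.05 were all among these 25, against 6.76% and 4.54%. Of the 7 with a signal of 6 or over, 1 was higher without overlap, Cyp4b1, and 0 were lower, against 6.56% and 28.0% of all tested genes of that signal, with medians of 0.04 and -0.08. By array, the median distance of the 32 genes from the wild type mean was 0.28 in Akita replicate 1 and 0.17 in replicate 3. The wild type arrays lay at -0.03 to 0.02, but they form that mean, so this range does not measure the spread between arrays. For all tested genes with a signal under 6 the median distance was 0.09 in Akita replicate 1 and 0.00 in replicate 3. The part of signal level in the P450 counts was not tested further.

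**Figure D4:**
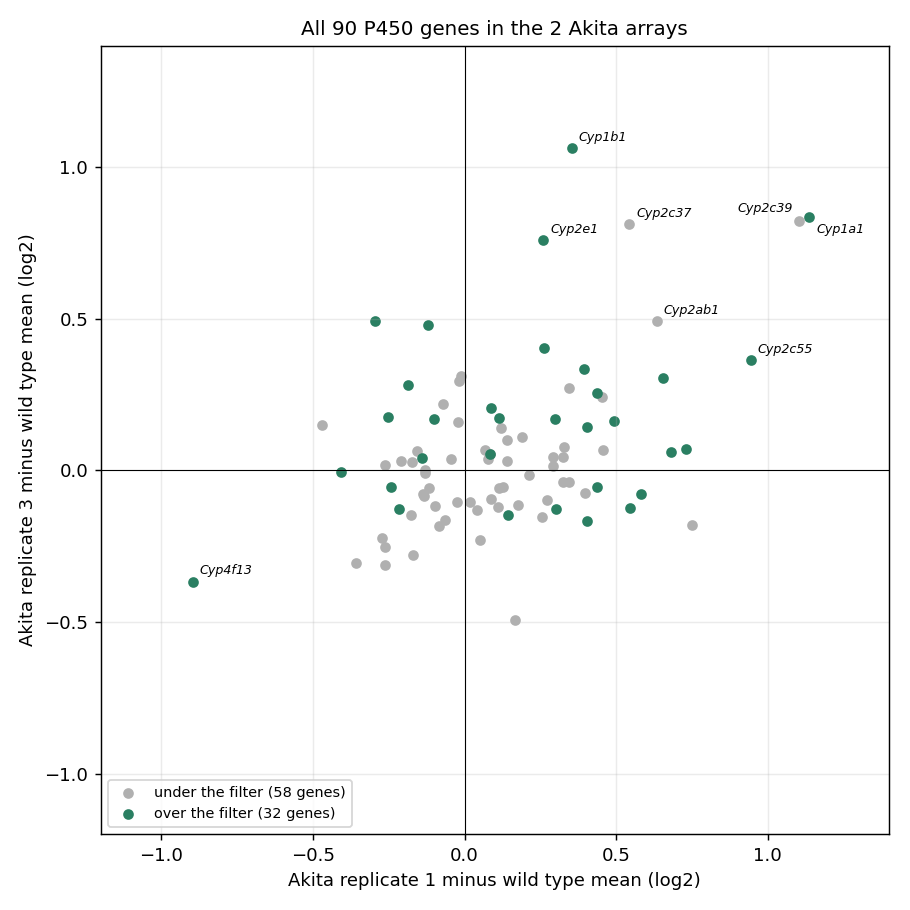
Each of the 90 P450 genes by its log2 distance from the wild type mean in Akita replicate 1 (horizontal) and replicate 3 (vertical), genes over the filter in green and under it in grey. Cyp1a1 at 1.14 and 0.84 lies far out on both axes, as does Cyp2c39, a gene under the filter, at 1.10 and 0.82. Cyp1b1 and Cyp2e1 lie out mainly on the vertical axis, and Cyp4f13 at -0.90 and -0.37 to the lower left.

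The 58 genes under the filter did not lean the same way. Among them 31 were higher and 27 lower by sign, with a median of 0.03. Of all 6652 genes under the filter, 4179 were higher and 2457 lower, with a median of 0.06. Among the 58, the groups did not overlap for 5 in the higher direction (8.62%), against 16.6% of all genes under the filter. In the lower direction they did not overlap for 4 (6.90%), against 6.10%. The 5 were Cyp2c39, Cyp2c37, Cyp2ab1, Cyp3a25 and Cyp4a29, and the 4 were Cyp2b23, Cyp2j8, Cyp2d12 and Cyp2a4, all named after their values were seen. Over all 90 genes, 15 were higher without overlap (16.7%), against 11.9% of all named genes, and 6 were lower (6.67%), against 15.7%. A log2 difference of 0.5 or more in size was found in 8 of 90 genes and one of 1 or more in 0.

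Most P450 genes lie beside others of the family. In the RefSeq gene order (GRCm38.p6), 66 of 89 placed P450 genes lay in 13 runs of neighbouring P450 genes, and 18 of them passed the filter, against 14 of the 23 that stood alone. The Cyp2c run of 13 genes held 1 tested gene, and the Cyp2j run of 7 held 2. Neighbouring copies can be near-identical, so probe sets may share signal between them, although 0 of the 90 had values identical to another probe set's. Another 8 single-symbol P450 probe sets had names outside the rule, such as Cyp4a12a and Cyp4a12b, with mean signals of 2.09 to 5.96. In a fit of all probe sets their smallest limma adjusted p was 0.404.

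Among the genes listed around the P450 members, the counts of calls and of groups without overlap lay near those of all genes. The lists hold genes that work with P450 enzymes, and Cyp51, Ptgis and Tbxas1, P450 genes with symbols outside the naming rule. Of 90 listed genes in 9 groups, 77 were measured and 72 tested. Limma called 0 of them, against 0.328% of all genes tested. At an unadjusted p under 0.05 by limma there were 11 (4 higher and 7 lower), against 4.13% higher and 9.49% lower of all genes tested. The groups did not overlap for 5 in the higher direction (6.94%), against 9.89% of all genes tested, and for 16 in the lower (22.2%), against 19.9%. Their median log2 difference was -0.07. By sign 23 were higher and 49 lower, against 6723 and 8753 of the 15528 genes tested. Of the 8678 tested genes with a signal of 6 or over, 5995 were lower by sign and 28.0% were lower without overlap. The redox partner list holds electron donors and the heme-binding proteins Pgrmc1 and Pgrmc2. The listed reductase Por, and Fdx2 and Fdxr, were not analysed here. Of the 6 tested genes of this list, 5 were lower by sign, among them Cyb5b, a mitochondrial cytochrome b5, at -0.45 (limma adjusted p = 0.333). Heme synthesis had 5 of 7 lower, with Ppox, which makes the last porphyrin before heme, at -0.51 (limma adjusted p = 0.291) and Alas1, the first enzyme, at -0.22. Nuclear receptors and Nrf2, which act on P450 genes, had 10 of 13 lower by sign and 6 lower without overlap, among them Rxrb at -0.38, Nr1h3 at -0.34 and Nr0b2 at -0.48, with limma adjusted p of 0.274 to 0.293.

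Enzymes that share substrates with P450 genes gave both directions. Alox5, which starts leukotriene synthesis, lay at 7.48, 7.51 and 7.37 in wild type and at 6.70 and 6.91 in Akita, clear of each other, with a log2 difference of -0.65 (limma adjusted p = 0.115). Alox15, another lipoxygenase, differed by 0.52 (limma adjusted p = 0.165). Ephx2, which hydrolyses the epoxides made by Cyp2c and Cyp2j enzymes, lay at 10.64, 10.51 and 10.61 in wild type and 10.88 and 11.05 in Akita (log2 difference 0.38, limma adjusted p = 0.242). Of 13 tested retinoid genes 6 were higher and 7 lower by sign, with Aldh1a1, which makes retinoic acid, at 0.42 (limma adjusted p = 0.226). Steroid and oxysterol partners had 7 of 9 lower by sign, against 8753 of the 15528 genes tested. The cholesterol exporter Abca1 was at -0.34 (limma adjusted p = 0.291). The P450 genes Cyp51, Ptgis and Tbxas1, whose symbols lie outside the naming rule, differed by -0.20, 0.13 and -0.34 without passing.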

How the data were processed

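RNA was isolated from fresh heart with a mirVana kit and 150 ng per sample was labelled for 1-colour Affymetrix arrays, per the labels' protocols. The authors deposited 1 log2 signal for each probe set and array. The submitters' processing notes name Affymetrix Expression Console. The sources used here do not state its version, summary method, normalization or annotation build. Values from 1.27 to 13.66 were used as deposited, and 0 columns were left out. Their array number limits the precision: 3 against 2 arrays allow a one-sided exact p of 0.1 at best.

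Of 41345 probe sets, 23521 had 1 gene symbol in the platform annotation, 1814 several and 16010 were not listed; per gene the probe set with the highest mean was kept. Genes with a mean at or over the 30th percentile were tested with limma 3.58.1 (R 4.3.3), Akita minus wild type, with Benjamini-Hochberg adjustment over 15528 genes and a threshold of 0.05. The script was tested on simulated data. The labels name no batch.

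The members and lists were chosen with earlier results of these data known. Named genes are the members past the threshold, the 12 of highest signal, the 12 of smallest p, Cyp1a2 and Cyp1b1, and from each pathway list up to 3 of smallest p; others were named by role or after their values were seen. Listed genes that matched no probe set with 1 symbol were not analysed here. No gene of any cell type marker list passed the threshold. Alternatives covered the filter, probe set choice, scaling, model and each array.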

Additional observations from a re-analysis of the deposited data

How the results depend on the processing

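Cyp1a1 was higher in Akita under every alternative run that tested it, with a log2 difference of 0.84 to 1.14, but its call rests on the full set of arrays and on the moderated model. The count of P450 genes past the threshold, 1 in the report, was 0 with the filter at the 50th percentile (which leaves Cyp1a1 out), with quantile normalization applied again, with array weights, with an unmoderated model and with arrays centred on the tested genes, and 0 to 0 with each array left out. Cyp1a1 then had differences of 1.01 with quantile normalization (limma adjusted p = 0.0628), 1.00 with array weights (0.0656), 0.99 unmoderated (0.329) and 1.08 centred on the tested genes (0.0873), and of 0.84 to 1.14 with an array left out (0.0852 to 0.222). The median over tested P450 genes, 0.19 in the report, was 0.0725 without a filter, 0.0933 with the filter at the 50th percentile, 0.10 with arrays centred on all probe sets, 0.28 centred on the tested genes and 0.14 to 0.28 with an array left out.

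Centring on all probe sets moved the median of all tested genes to -0.12 (from -0.03) and the calls over all genes from 33 higher and 18 lower to 41 and 43; centring on the tested genes moved them to 0.06 and to 25 and 5. Of 272 values of 20 other named P450 genes, 252 kept direction and call. Centring on all probe sets reversed Cyp2u1 (-0.05) and Cyp20a1 (-0.0367); quantile normalization and centring on the tested genes reversed Cyp2d22 (0.0565 and 0.0442) and Cyp39a1 (0.0713 and 0.0558). With an array left out, differences of both signs were found, from -0.1 to 0.17 for Cyp2u1, -0.145 to 0.04 for Cyp2d22, -0.187 to 0.283 for Cyp20a1, -0.253 to 0.177 for Cyp39a1, -0.297 to 0.493 for Cyp2j6, -0.12 to 0.48 for Cyp4v3 and -0.123 to 0.547 for Cyp1a2. The causes were not tested. Centring on the tested genes, the signal class under 6, the TATAAA search and the fit of all probe sets were chosen after seeing the data. No paired analysis was possible because the labels do not pair the samples.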
